A study of Mus musculus with 6 samples.

Results

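The Krüppel-like factors (KLF) outside the erythroid factor *Klf1* were followed in *MLL-AF9* leukemia. They were taken by symbol as a named set of 10 genes: *Klf2*, *Klf3*, *Klf4*, *Klf6*, *Klf7*, *Klf9*, *Klf10*, *Klf11*, *Klf13* and *Klf16*. All 10 were found among the 55487 genes of the table, and all 10 passed the filter used for testing, a mean normalized count of at least 10. Between the libraries labelled PBS and those labelled pIpC, *Klf2* fell 5.80-fold, while *Klf9*, *Klf3*, *Klf7*, *Klf13*, *Klf4* and *Klf10* rose. *Klf6*, *Klf11* and *Klf16* did not pass the test.

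The samples were 6 preparations of GFP+ bone marrow cells, 3 labelled PBS and 3 labelled pIpC (poly(I:C), a synthetic RNA duplex that elicits interferon). Both groups derive from C57BL/6 donor cells of the genotype CD45.2(+) *Mx1*-Cre *Brd9*fl/fl carrying MA9 (the *MLL-AF9* fusion), and both hosts were CD45.1(+) CD45.2(-) mice irradiated with 2 fractions of 450 cGy. Each host received 1000 leukemic marrow cells and then 3 injections on alternate days, either of PBS or of pIpC at 20 mg/kg, and was analysed on day 10 after injection. The methods of the study give recipients of this transplant as 6 weeks old. Cre is driven by the interferon-responsive *Mx1* promoter, so the pIpC group differs from PBS in interferon exposure as well as in Cre induction, and these cannot be told apart here. The GFP reporter is encoded by the *MLL-AF9* vector, and a GFP gate therefore selects transduced donor cells. The labels do not say whether each sample is a separate mouse, so p-values measure the spread between these samples only.

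KLF proteins bind CACCC and GC-rich elements through C-terminal C2H2 zinc fingers, which are closely related across the family, and differ in their N-terminal parts, which recruit coactivators or corepressors. KLF2, KLF4, KLF6 and KLF7 are known mainly as activators, KLF3 as a repressor that recruits CtBP, and KLF9, KLF10, KLF11, KLF13 and KLF16 as factors that can recruit the Sin3 corepressor. In blood cells, KLF2 is known for keeping lymphocytes quiescent and for restraining inflammatory genes in monocytes, and KLF4 for promoting monocyte differentiation.

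RefSeq promoters (GRCm38.p6) were matched for 8 of the 10 genes, without an entry for *Klf10* and *Klf16*, and the 250 bases before the transcript start were searched on both strands. These 3 are shown because *Klf2* had the largest fall, *Klf9* the largest rise and *Klf13* the highest level per length among the genes that rose. Capitals mark matches to CACCC, which reads GGGTG on the opposite strand, to the AP-1 element TGANTCA, and to the MEF2 consensus. The *Klf2* sequence lies at chr8:72318812-72319061 on the plus strand, that of *Klf9* at chr19:23140976-23141225 on the plus strand, and that of *Klf13* at chr7:63938916-63939165 on the minus strand.
Klf2: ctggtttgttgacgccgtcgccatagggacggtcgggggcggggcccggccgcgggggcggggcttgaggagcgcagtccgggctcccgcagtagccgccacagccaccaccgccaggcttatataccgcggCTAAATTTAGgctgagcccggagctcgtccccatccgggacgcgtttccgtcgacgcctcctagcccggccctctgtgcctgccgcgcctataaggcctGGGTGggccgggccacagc
Klf9: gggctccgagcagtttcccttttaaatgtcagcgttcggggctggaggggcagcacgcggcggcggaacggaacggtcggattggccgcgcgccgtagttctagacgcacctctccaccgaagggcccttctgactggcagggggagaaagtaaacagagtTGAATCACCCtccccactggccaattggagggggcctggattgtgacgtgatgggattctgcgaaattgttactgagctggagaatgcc
Klf13: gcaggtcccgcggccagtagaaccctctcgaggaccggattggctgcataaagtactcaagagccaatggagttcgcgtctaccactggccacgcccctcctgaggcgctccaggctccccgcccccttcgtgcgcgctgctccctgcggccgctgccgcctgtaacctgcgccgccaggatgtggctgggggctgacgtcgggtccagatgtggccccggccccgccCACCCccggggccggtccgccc

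CACCC was present in 5 of the 8 promoters, with 5 copies in *Klf3*, 3 in *Klf7* and 1 each in *Klf2*, *Klf9* and *Klf13*, and 52.0% of all 32851 RefSeq promoters of this length hold it. GGGCGG, the GC box, was present in 7 of the 8, all but *Klf9*, against 32.7% of all promoters, with 6 copies in *Klf3* and 4 each in *Klf4* and *Klf11*. TGANTCA was found only in *Klf9* among the 8, where it shares 2 bases with the CACCC match, and 6.75% of all promoters hold it. The MEF2 consensus was matched only in *Klf2* among the 8, from 118 to 109 bases before the start, and 2.92% of all promoters hold it. In *Klf3* and *Klf13* a CACCC match and a GGGCGG match share 1 base, and *Klf4* and *Klf11* each hold a pair of overlapping GGGCGG matches. The 8 promoters had a GC content of 59.2% to 78.4%, above the median of 52.4% for all promoters. These matches describe sequence and were not tested as binding sites.

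**Figure D1:**
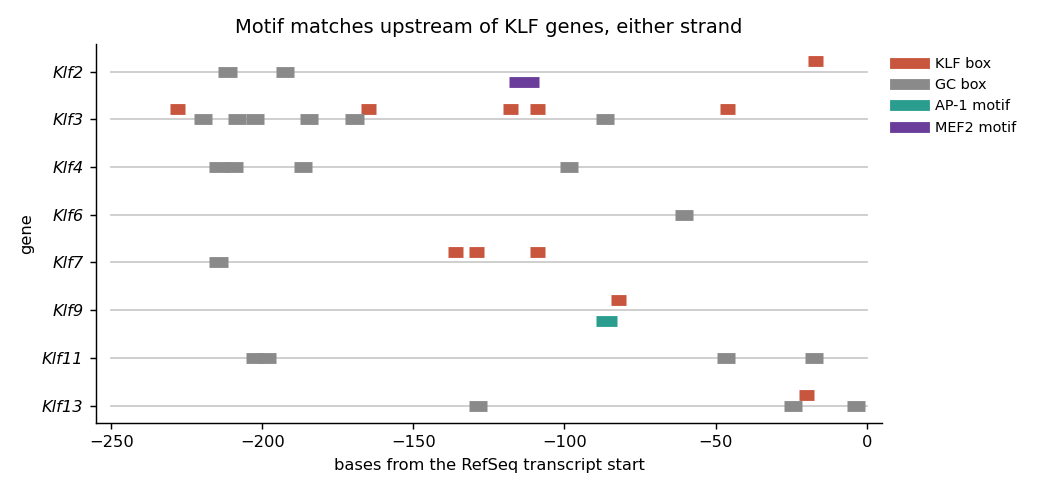
Position of motif matches on either strand in the 250 bases before the RefSeq transcript start (x axis, bases from the start) for the 8 genes with a promoter entry (y axis); KLF box is CACCC, GC box is GGGCGG, AP-1 motif is TGANTCA. *Klf3* holds 5 KLF boxes and 6 GC boxes, and the MEF2 match lies in *Klf2*.

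Reads recovered on genes ranged from 19277439 to 23586722 per library. PBS replicate 3 stood apart from the other 2 PBS libraries: the chi-square statistic per gene was 194 and 171 against PBS replicates 1 and 2, and 6.30 between those 2. Genes with a long total exon length tended to be low in PBS replicate 3. Its log2 level relative to the mean of the other 2 PBS libraries had a median of 0.74 over genes with under 2000 exon bases and of -0.34 over genes with at least 4000. Over the 10 KLF genes this median was -0.99, against 0.00 over all genes tested, and PBS replicate 3 was the lowest PBS library in 7 of the 10. *Brd9*, the floxed gene, was not lower in the libraries labelled pIpC. PBS replicates held 1926.8, 1946.4 and 1631.9 normalized counts and the others 2036, 2263 and 2011.4 (exact permutation test, 2-sided p = 0.1, the smallest that 3 against 3 libraries allow). The floxed part covers some exons of *Brd9* and the count covers all of them, so this checks the deletion only in part. Groups are therefore named by their labels. The fold changes of the 10 KLF genes below are also given without PBS replicate 3, as are the per-length levels of *Klf2*, *Klf6* and *Klf13*. Other values rest on all 6 libraries unless stated.

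The 2 groups also differed in markers of marrow cell types. Whether these transcripts came from leukemic cells or from other cells was not tested. Markers counted as risen or fallen passed an adjusted p under 0.1 by limma. Over all genes tested, 25.0% were called higher and 20.4% lower. Neutrophil markers rose in 11 of 12, with a summed normalized count of 73136 to 149614 in PBS and 2084454 to 2171091 in the libraries labelled pIpC. All 12 B cell, all 12 erythroid, all 6 megakaryocyte and all 9 tested T and NK cell markers rose, with summed counts of 145 to 307, 1868 to 3118, 379 to 555 and 199 to 332 in PBS, against 1593 to 2905, 7423 to 9155, 1475 to 2106 and 4145 to 4689. Single genes made up most of the PBS sums: *Elane* (73148 ± 30713) for neutrophil, *Cd79b* (174 ± 70.3) for B cell and *Tfrc* (2471 ± 622) for erythroid markers. For megakaryocyte markers this was *Itga2b* (396 ± 89.9, SD, n = 3). *Nkg7* made up most of the T and NK cell sums in both groups, at 210 ± 78.9 and 4023 ± 306 (SD, n = 3). The sums are therefore not amounts of each cell type. The defining markers *Ms4a1*, *Slc4a1* and *Ppbp* were at 0 in every PBS library, and so passed the filter only through the libraries labelled pIpC. Of 12 monocyte and macrophage markers, 8 rose and 3 fell, at summed counts of 39412 to 39640 and 38855 to 43183. *Ly6c2* was the largest part of these sums, at 22949 ± 2529 and 30205 ± 1804 (SD, n = 3). The sums hide changes in opposite directions. *Adgre1* fell from 4307 ± 138 to 310 ± 44.5, while *C1qa* rose from 33.2 ± 16.8 to 444 ± 126 (SD, n = 3). Of 10 *MLL-AF9* self-renewal genes, 9 fell, *Hoxa9* among them from 5130 ± 195 to 256 ± 28.4 (SD, n = 3), and *Mef2c* rose. The part of these differences in the KLF values was not tested, and in bulk RNA fewer cells of a type and less RNA per cell cannot be told apart.

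Of the 10 KLF genes, 6 rose and 1 fell at an adjusted p under 0.1 from limma with Benjamini-Hochberg adjustment over all 15020 genes tested. Over all genes tested 45.3% were called, 25.0% higher and 20.4% lower, so that calls of either direction were common in this comparison. The median log2 fold change was 0.94 over the 10 genes and 0.015 over all genes tested. Over tested genes with at least 4000 exon bases it was 0.18. With the trend with exon length removed from each library, it was 0.85 over the 10 genes and 0.021 over all genes tested. In 7 of the 10 genes the groups did not overlap, against 56.8% of all genes tested. Without PBS replicate 3, 8 of the 10 were called, 6 higher and 2 lower, against 65.1% of all genes, and the median of the 10 was 0.73.

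*Klf2* (ENSMUSG00000055148, chromosome 8, 72319033 to 72321656 of GRCm38) was the 1 gene that fell. *Klf2* had 3760.2, 3830.1 and 4332.0 normalized counts in the PBS libraries (here and for the other genes replicates 1, 2 and 3 in order), against 613.8, 691.7 and 752.3 in the libraries labelled pIpC. Every library labelled pIpC stood below every PBS library, and the ranges were far apart. The change came to -2.53 ± 0.13 (SE) on the log2 scale, with an adjusted p of 3.52e-05 by limma, and to -2.47 without PBS replicate 3, the highest PBS library for this gene. Over 18 alternative settings it lay between -2.62 and -2.30 and was called in each of them.

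*Klf9* (ENSMUSG00000033863, chromosome 19, 23141226 to 23168134), a glucocorticoid-responsive gene, rose most and had the lowest level of the 10 in PBS. *Klf9* had 41.5, 53.6 and 17.0 normalized counts in the PBS libraries, against 353.3, 263.6 and 272.7 in the libraries labelled pIpC. The lowest library labelled pIpC was well above the highest PBS library. *Klf9* thus differed by 3.09 ± 0.43 (SE) on the log2 scale, with an adjusted p of 0.00163 by limma, which is 8.50-fold on the log2(normalized count + 1) scale, and by 2.61 without PBS replicate 3.

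*Klf3* (ENSMUSG00000029178, chromosome 5, 64803388 to 64832901) encodes the CtBP-recruiting repressor. *Klf3* had 577.1, 506.1 and 379.1 normalized counts in the PBS libraries, against 1554.0, 1784.9 and 1502.7 in the libraries labelled pIpC. The groups did not overlap. *Klf3* differed by 1.74 ± 0.18 (SE) on the log2 scale, with an adjusted p of 0.000492 by limma, and by 1.57 without PBS replicate 3. Libraries were unstranded per their labels, and *Klf3* shares exon bases with the opposite-strand gene *Gm20033*, so their reads cannot be told apart there. *Gm20033* itself was listed at 10.7 ± 8.55 in PBS and 16.5 ± 8.28 in the other group (SD, n = 3).

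*Klf7* (ENSMUSG00000025959, chromosome 1, 64029447 to 64122282) encodes a broadly expressed activator. *Klf7* had 770.0, 630.6 and 280.7 normalized counts in the PBS libraries, against 1571.9, 1874.8 and 1668.1 in the libraries labelled pIpC. PBS replicate 3 was the lowest by a wide margin, and the groups did not overlap. *Klf7* differed by 1.72 ± 0.36 (SE) on the log2 scale, with an adjusted p of 0.0101 by limma, and by 1.29 without that library. It shares exon bases with antisense transcripts, of which *Gm13748* had a mean of 6.04 in the libraries labelled pIpC.

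*Klf13* (ENSMUSG00000052040, chromosome 7, 63886351 to 63938915) is known for activating *Ccl5* in T cells. *Klf13* had 1734.7, 1609.4 and 966.4 normalized counts in the PBS libraries, against 3249.7, 3651.5 and 3488.0 in the libraries labelled pIpC. The groups did not overlap. *Klf13* differed by 1.31 ± 0.23 (SE) on the log2 scale, with an adjusted p of 0.00475 by limma, and by 1.05 without PBS replicate 3. *Ccl5* itself, a chemokine gene, was at 3.15 ± 1.99 and 42.4 ± 1.39 (SD, n = 3), a rise of 3.54 on the log2 scale (limma, adjusted p = 0.00166).

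*Klf4* (ENSMUSG00000003032, chromosome 4, 55527143 to 55532466) belongs to the monocyte differentiation factors. *Klf4* had 155.7, 194.3 and 75.8 normalized counts in the PBS libraries, against 357.3, 289.1 and 324.9 in the libraries labelled pIpC. The groups did not overlap, but the PBS values were widely spread. *Klf4* differed by 1.28 ± 0.35 (SE) on the log2 scale, with an adjusted p of 0.0288 by limma, and by 0.89 without PBS replicate 3. The call was lost without pIpC replicate 1, where the difference was 1.21 (limma, adjusted p = 0.105).

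*Klf10* and *Klf11* are the TGF-β-inducible early genes. *Klf10* (ENSMUSG00000037465, chromosome 15, 38291463 to 38300706) had 739.8, 582.0 and 611.1 normalized counts in the PBS libraries, against 955.1, 1070.7 and 891.6 in the libraries labelled pIpC. Its groups did not overlap. *Klf10* differed by 0.60 ± 0.15 (SE) on the log2 scale, the smallest of the 6 rises, with an adjusted p of 0.0199 by limma. Without PBS replicate 3 it differed by 0.56. *Klf11* (ENSMUSG00000020653, chromosome 12, 24651274 to 24662789) had 478.5, 285.4 and 144.9 normalized counts in the PBS libraries, against 311.4, 446.5 and 432.2 in the libraries labelled pIpC. PBS replicate 1 was the highest of all 6, PBS replicate 3 the lowest, and the groups overlapped. *Klf11* differed by 0.53 ± 0.42 (SE) on the log2 scale, with an adjusted p of 0.362 by limma, and its 95% confidence interval was -0.48 to 1.54. Without PBS replicate 3 the value was 0.08, and without PBS replicate 1 it was 0.94 and passed the threshold (limma, adjusted p = 0.0825). Whether the changes of *Klf10* and *Klf11* differ was not tested.

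*Klf6* (ENSMUSG00000000078, chromosome 13, 5861482 to 5870394) encodes an activator. *Klf6* had 5220.7, 4685.4 and 1840.1 normalized counts in the PBS libraries, against 3493.2, 3809.9 and 3524.7 in the libraries labelled pIpC. PBS replicates 1 and 2 were above all the libraries labelled pIpC, and PBS replicate 3 was below them. *Klf6* differed by 0.02 ± 0.38 (SE) on the log2 scale, with an adjusted p of 0.972 by limma, and its 95% confidence interval was -0.89 to 0.93. Without PBS replicate 3 it was -0.46 and was called lower (limma, adjusted p = 0.0007), so that this 1 library decided the value.

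*Klf16* (ENSMUSG00000035397, chromosome 10, 80567124 to 80577321) encodes a Sin3-linked factor. *Klf16* had 272.5, 293.5 and 372.3 normalized counts in the PBS libraries, against 286.4, 279.9 and 272.7 in the libraries labelled pIpC. The groups overlapped, with PBS replicate 3 highest. *Klf16* differed by -0.15 ± 0.17 (SE) on the log2 scale, with an adjusted p of 0.523 by limma, its 95% confidence interval was -0.55 to 0.26, and without PBS replicate 3 the value was -0.02.

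**Figure D2:**
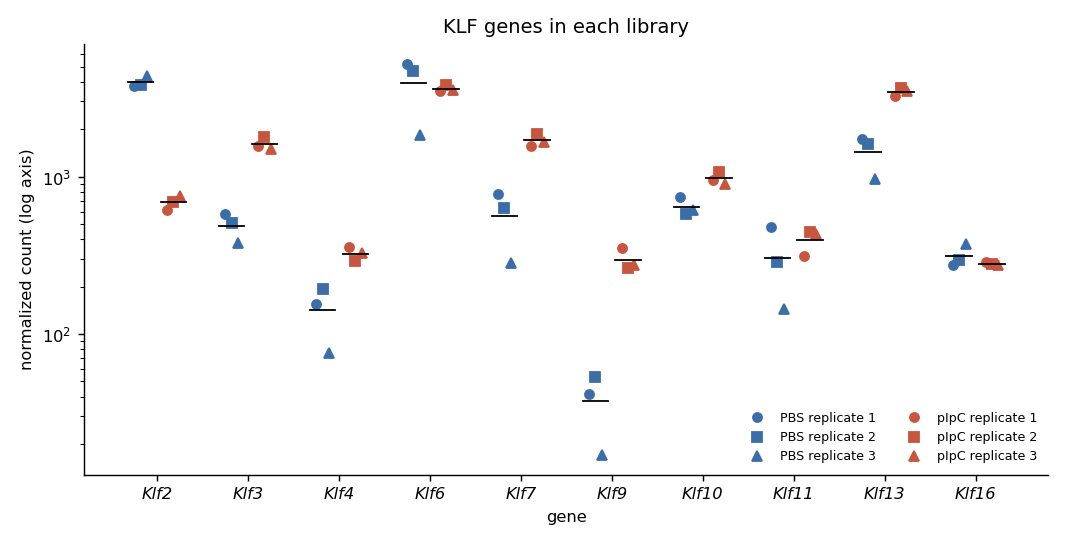
Normalized count on a log axis for each of the 10 KLF genes in the 6 libraries (points, 1 symbol shape per replicate number) with the group mean (black bar). *Klf2* is lower in every library labelled pIpC, at 613.8 to 752.3, and PBS replicate 3 (blue triangle) is the lowest PBS library in 7 of the 10 genes.

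To compare levels between genes, normalized counts were divided by the exon length of each gene in kb. In PBS, *Klf2* was the highest, at 2152 ± 169 (SD, n = 3) normalized counts per kb, followed by *Klf6* at 892 ± 414 and *Klf13* at 191 ± 54.7. *Klf2* accounted for 50.3%, 53.6% and 70.9% of the summed level per kb of the 10 genes in the PBS libraries, against 13.3%, 13.7% and 15.7% in those labelled pIpC. There the order was *Klf6* at 822 ± 39.7, *Klf13* at 460 ± 26.8 and *Klf2* at 371 ± 37.6 normalized counts per kb, and the values of these 3 did not overlap. The share of *Klf13* went from 5.03% ± 1.00 to 17.7% ± 0.29 (SD, n = 3) and that of *Klf7* from 1.80% ± 0.67 to 8.05% ± 0.36. Lower in the order, *Klf13* and *Klf10* overlapped in PBS, as did neighbours in the order *Klf16*, *Klf11*, *Klf7*, *Klf4*, *Klf3*, and *Klf9* stood apart as the lowest. In the libraries labelled pIpC, *Klf10* overlapped *Klf7*, and so did neighbours in the order *Klf4*, *Klf16*, *Klf11*, *Klf9*. The summed level per kb of all 10 genes was 3742 ± 386 in PBS and 2603 ± 121 in the libraries labelled pIpC, and with *Klf2* left out it was 1590 ± 554 and 2232 ± 108 (SD, n = 3). Without *Klf2* the PBS libraries were at 2014.2, 1793 and 962.9, so PBS replicate 3 carried much of that last difference, which was 641 normalized counts per kb with this library and 328 without it. Leaving out PBS replicate 3, a choice made after the data were seen, gave PBS means of 3958 for all 10 genes and 1904 without *Klf2*. The PBS levels were then 2055 for *Klf2*, 1128 for *Klf6* and 222 for *Klf13*, and all 10 genes stood in the same order. The PBS shares without it were 51.9% for *Klf2*, 5.61% for *Klf13* and 2.17% for *Klf7*.

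**Figure D3:**
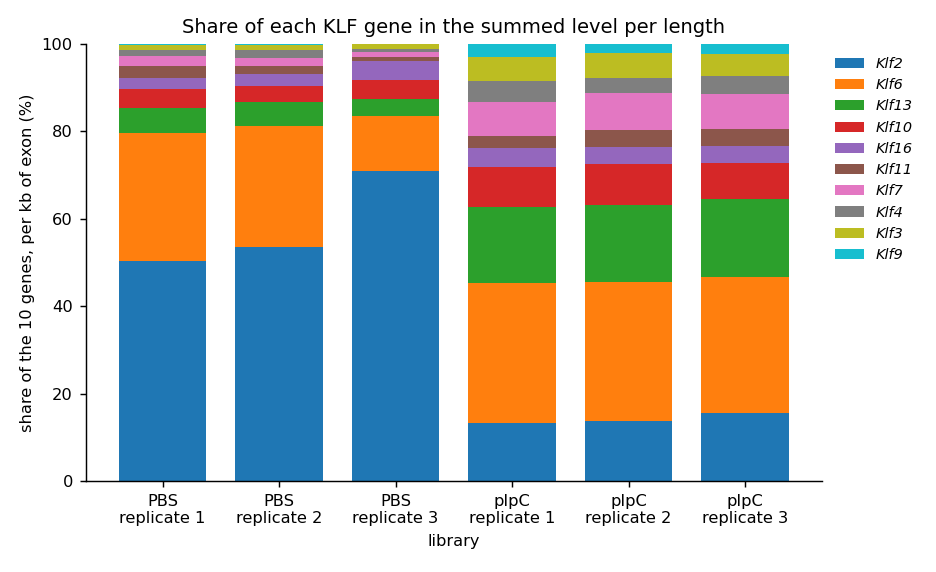
Share of each gene (colours) in the summed normalized count per kb of exon of the 10 KLF genes (y axis, percent) in each library (x axis). *Klf2* makes up 50.3% to 70.9% in PBS and 13.3% to 15.7% in the libraries labelled pIpC.

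Of the other 16 KLF and SP genes, 8 passed the filter and 5 of these rose, where 25.0% of all genes tested were called higher. The median log2 fold change was 1.02 over the 8. *Klf1*, the erythroid factor, rose from 12.1 ± 8.13 to 213 ± 50.7 (SD, n = 3), or 4.17 on the log2 scale (limma, adjusted p = 0.000553), beside the 12 erythroid markers that rose, of which it is 1. *Klf5* had a log2 fold change of 0.98, *Klf8*, which encodes a CtBP-recruiting repressor and is a known target of KLF1 and KLF3, 1.38, and the GC-box factors *Sp3* and *Sp4* 0.84 and 1.09. *Sp1* was at 2870 ± 1311 and 4221 ± 317 (SD, n = 3), or 0.69 on the log2 scale (limma, adjusted p = 0.201), and passed without PBS replicate 3, at 0.22. *Klf12* (1.05) and *Sp2* (0.25) did not pass the threshold. *Klf12* was near the filter limit, at 6.16 ± 2.86 and 13.9 ± 5.85 (SD, n = 3) and at most 18 reads. With a filter mean of 50, 7 of these genes were tested and 5 rose. *Klf14*, *Klf17*, *Sp5* and *Sp8* were at 0 in all libraries, and *Klf15*, *Sp6*, *Sp7* and *Sp9* had at most 5 reads in any library.

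**Figure D4:**
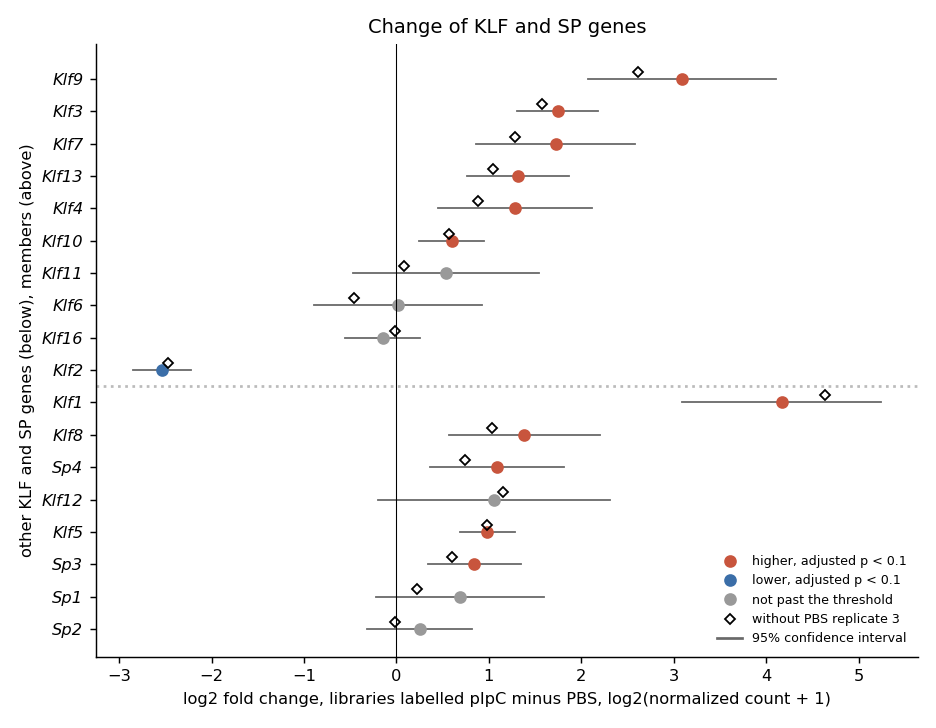
Log2 fold change (x axis, libraries labelled pIpC minus PBS, on log2(normalized count + 1)) of the 10 KLF genes and the 8 other KLF and SP genes tested, with 95% confidence intervals (lines) and the value without PBS replicate 3 (open diamonds). *Klf2* is the 1 gene called lower, at -2.53, and *Klf6* moves from 0.02 to -0.46 without that library.

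Among 16 genes known to act upstream of KLF genes, 9 rose and 2 fell, against 25.0% higher and 20.4% lower over all genes tested. Their median was 0.61 on the log2 scale. ERK5 signalling through MEF2 factors is known to induce *Klf2* and *Klf4*. *Mapk7*, which encodes ERK5, and *Mef2a* rose, with log2 fold changes of 0.66 and 0.75, and *Map2k5*, which encodes the kinase that activates ERK5, fell by 0.49. *Mef2c* had normalized counts of 5.53 ± 5.11 and 1086 ± 26.1 (SD, n = 3), or 7.72 on the log2 scale (limma, adjusted p = 0.00013). *Mef2d*, the other MEF2 gene of the list, was at 1887 ± 730 and 2009 ± 138 (SD, n = 3), or 0.18 on the log2 scale, and did not pass (limma, adjusted p = 0.68). Without PBS replicate 3 *Mef2d* was at -0.20 and was called lower (limma, adjusted p = 0.062). *Wwp1*, a ubiquitin ligase known to target KLF2, rose by 1.12 on the log2 scale. In the TGF-β pathway, which induces *Klf10* and *Klf11*, *Tgfb1* went down from 9867 ± 2565 to 4113 ± 74.6 (SD, n = 3), or -1.23 on the log2 scale (limma, adjusted p = 0.00275). Its receptor gene *Tgfbr2* and the effector *Smad3* rose, by 1.99 and 1.68. *Nr3c1*, the glucocorticoid receptor known to induce *Klf9*, rose by 0.95, and *Foxo3* by 1.01; *Foxo1*, which is known to induce *Klf2*, was at -0.15 and did not pass.

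Among 12 genes known as KLF targets, 11 were tested, with a median of -0.16 on the log2 scale. Of these, 4 rose and 3 fell, where 25.0% of all genes tested were called higher and 20.4% lower. Known targets of KLF2 or KLF4 were among the rises and the falls. *Thbd*, which encodes the anticoagulant receptor thrombomodulin, went down from 1260 ± 283 to 268 ± 14.8 (SD, n = 3), or -2.20 on the log2 scale (limma, adjusted p = 0.00024). *Cdkn1a*, the cell cycle inhibitor p21, fell by 1.82 and *Cd14*, the monocyte endotoxin co-receptor, by 1.16 on the log2 scale. *S1pr1*, a receptor for lymphocyte egress, rose from 3.41 ± 2.48 to 52.3 ± 4.95 (SD, n = 3). *Lgals3*, which encodes galectin-3 and is known to be repressed by KLF3, rose by 1.25. *Smad7*, known to be repressed by KLF10, was at -0.27 and did not pass. Without PBS replicate 3 it was at -0.49 and was called lower (limma, adjusted p = 0.0158). Markers of B, T and NK cells, in which *S1pr1* and *Ccl5* are also expressed, rose in the same libraries, and their part in these values was not tested.

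**Figure D5:**
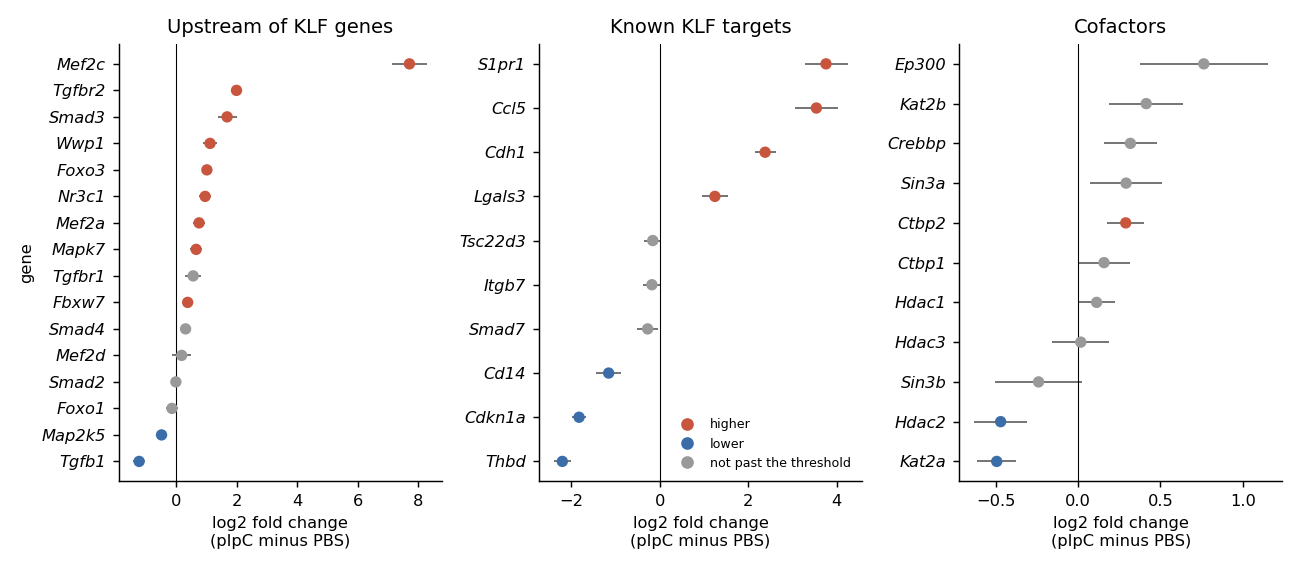
Log2 fold change (x axis, libraries labelled pIpC minus PBS) with its standard error (lines) for tested genes upstream of KLF genes, known KLF targets (1 of the 11 not shown) and cofactors (panels with separate x axes), coloured by call at an adjusted p under 0.1. *Mef2c* is highest at 7.72 and *Thbd* lowest among targets at -2.20.

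Of 11 genes for cofactors that KLF proteins recruit, 1 rose and 2 fell, where 45.3% of all genes tested were called in either direction. The median of the 11 was 0.16 on the log2 scale. *Ctbp2*, the corepressor bound by KLF3, KLF8 and KLF12, rose by 0.29 (adjusted p = 0.0847 from limma). The acetyltransferase gene *Kat2a* fell by 0.50 (limma, adjusted p = 0.0167) and the deacetylase gene *Hdac2* by 0.47 (limma, adjusted p = 0.0623). The *Ctbp2* call was kept without PBS replicate 3 (0.28, limma, adjusted p = 0.0118). It was lost under many alternatives, among them quantile normalization, edgeR, any pIpC library left out, and removal of the exon length trend (0.16, limma, adjusted p = 0.288). *Ctbp1*, *Sin3a*, *Sin3b*, *Hdac1*, *Hdac3*, *Ep300*, *Crebbp* and *Kat2b* did not pass. This count moved most with the libraries used. It went to 8 of 11, 6 higher and 2 lower, without PBS replicate 3, where 65.1% of all genes were called. Without pIpC replicate 2 or 3 it went to 1 of 11.

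The genes whose log2 level followed *Klf2* most closely over the 6 libraries were *3300005D01Rik* (Pearson r = 0.9994), *Hpgd* (0.9989) and *Bfsp1* (0.9989). Their normalized counts were 239 ± 28.4, 32944 ± 1459 and 322 ± 64.2 in PBS and 19.9 ± 2.91, 52.2 ± 14.9 and 0.66 ± 0.57 in the libraries labelled pIpC (SD, n = 3). Those closest to *Klf9* were *Cnot7* (0.9975), *Gm14435* (0.9974) and *Ccnb1* (0.9973). Each correlation is over 6 points in 2 groups that lie apart, and describes these libraries only.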

How the data were processed

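RNA-seq libraries of GFP+ bone marrow cells were poly(A)-selected and unstranded per the labels. The authors deposited 1 table of gene counts normalized by 1 factor per library, treated here as a signal without length normalization. The submitters' processing notes name HISAT2 2.2.1, SAMtools, featureCounts, Subread and edgeR with GRCm38, whereas the methods of the study name nf-core/rnaseq with STAR and RSEM, stranded libraries, c-Kit+ cells and a lower, sublethal irradiation; which pipeline made the table was not settled. Dividing by each library's step gave whole reads, within 0.001 reads, for 100% of values, and these reads were used in count tests. Of 55487 genes, 55141 received a symbol from a list of gene names and 55227 an exon length from GENCODE M21 (GRCm38), which also gave positions. Promoters came from RefSeq (GRCm38.p6). The 250 bases before the start were used in place of the planned whole entry, which runs past it.

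The main test was limma 3.58.1 in R 4.3.3, trended by intensity, applied to log2(normalized count + 1), which understates changes of low genes, over 15020 genes with a mean of at least 10, at a Benjamini-Hochberg adjusted p under 0.1. Alternatives were pseudocounts of 0.1 and 10, a filter mean of 50 or none, quantile scaling, centring of ratios on their median, each library left out, a replicate block, no trend, edgeR 4.0.16 quasi-likelihood and DESeq2 1.42.0 on recovered reads, and an adjusted p under 0.05. Removal of the trend with exon length, and the MEF2 motif, were added after the data were seen. Scripts were tested on simulated data.

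Genes named are the 10 KLF genes, *Brd9*, KLF and SP genes past the threshold, the 2 largest rises and falls of each list, other list genes with their values, marker sums, and the 3 genes most alike to the largest rise and the largest fall. The KLF genes and the lists were chosen with earlier results of these data known, from general knowledge. Protein sequences were not analysed here. Values of some list genes are not reported here.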

Additional observations from a re-analysis of the deposited data

How the results depend on the processing

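Of 180 comparisons of the 10 KLF genes with 18 alternatives, 170 kept direction and side of the threshold. *Klf6* changed sign under quantile normalization (-0.12, where the median of all genes was also -0.12), median-centred ratios (-0.018), edgeR (-0.13), DESeq2 (-0.12) and removal of the exon length trend (-0.017), and ranged from -0.46 to 0.30 with 1 library left out, called lower without PBS replicate 3. *Klf4* ranged from 0.89 to 1.56 and lost its call without pIpC replicate 1 (adjusted p = 0.105 from limma; 0.00094 to 0.105 over all alternatives). *Klf11* ranged from 0.084 to 0.94 and gained a call without PBS replicate 1. *Klf16* was at 0.000 after removal of the length trend.

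The number of cofactor genes called was 1, *Kat2a*, under the replicate block, where *Ctbp2* (adjusted p = 0.228 from limma) and *Hdac2* (0.109) lost their calls, and 1 at an adjusted p under 0.05, and 1 to 8 with a library left out, and that of upstream genes 7 to 14. Quantile normalization gave 44.3% of calls as higher in place of 55.1%, and *Klf2* and the 6 genes that rose kept their calls under it. Same-numbered libraries' deviations correlated at -0.117, 0.143 and 0.041, and not every library correlated best with its own number, so numbers were not taken as pairs; with the replicate block 6095 genes and the same 7 KLF genes were called. Of 143 comparisons of other results, 137 stayed within 1.5 times or kept their side, and the other 6 are the cofactor and upstream counts above. Precision is limited by 3 libraries a group and, for *Klf9* in PBS, by low counts.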
